A study of Oryctolagus cuniculus with 54 samples.

Results

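Lungs of fetal New Zealand White rabbits taken on day 20 (F20) and day 23 (F23) of gestation were compared, time points that fall at the tubular stage of the lung and at its end. The 8 libraries, 4 at F20 (animals 1, 17, 35 and 36) and 4 at F23 (animals 6, 22, 23 and 40), were all of the F20 and F23 libraries among the 54 libraries of 45 rabbits, chosen by their labelled time point, and each came from a different animal. The fetuses were delivered by caesarean section from dams that had been sedated, given ketamine and xylazine, and killed with pentothal. The fetuses were also killed with pentothal before the lungs were taken. No genetic change or experimental treatment of the fetuses is described, and per the methods each lung came from the litter of a different dam. The labels call the tissue a homogenate of the right lung, whereas the methods state that whole lungs were taken at these early ages, so every cell type of the organ contributed to each value. All 8 libraries were sequenced in run 3.

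In the pseudoglandular phase the lung is a gland-like tree of epithelial tubes that branch repeatedly into the surrounding mesenchyme, and the conducting airways are laid down. In the canalicular phase that follows, the future gas-exchange region grows and is supplied with capillaries. The epithelium at the tube tips gives rise to the type I cells that line the air spaces and the type II cells that make surfactant. The comparison addressed how far the lung transcriptome moved within this phase.

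Between F20 and F23, 203 of the tested genes (1.52%) were called higher and 56 (0.419%) lower, named rising and falling genes here. A call needed both a change of more than 2-fold and a pass in the test described below. A further 388 genes were estimated more than 2-fold higher and 469 more than 2-fold lower without being called. Increases were thus not in excess among those uncalled genes. The rising genes had a median level of 6.10 CPM, the normalised read count scaled to a common library size, at F20 and 15.8 CPM at F23, and the falling genes 9.03 CPM at F20 and 3.14 CPM at F23, while the median over all 13378 tested genes was 15.3 CPM. Together the rising genes took 0.390% to 0.421% of the normalised counts in the F20 animals and 0.841% to 1.18% in the F23 animals. The falling genes took 0.108% to 0.128% at F20 and 0.0354% to 0.0523% at F23. These sums describe genes chosen by the same contrast and carry no test. In whole tissue, fewer cells of a type and less RNA per cell cannot be told apart.

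Genes are given in the deposited counts as Ensembl identifiers with no symbol beside them, and 0 identifiers could be paired with a name here. No gene can therefore be assigned a function, and neither the lung markers nor those of other tissues could be checked.

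The libraries held 6433138 to 7323627 counts, with a mean of 7082310 ± 433767 at F20 and 6798604 ± 332750 at F23 (SD over 4 animals each). These totals did not differ beyond the spread between animals in an exact permutation test over the 70 divisions of the animals (two-sided p = 0.343, where the smallest possible is 0.0286). One gene, the most abundant, split the libraries into 2 ranges. It took 6.01% to 7.22% of the counts in F20 animals 17, 35 and 36 and in F23 animal 40, and 0.931% to 1.25% in F20 animal 1 and F23 animals 6, 22 and 23. Library totals followed the same split, at 7247023 to 7323627 counts in the 4 libraries with the high share and 6433138 to 6792685 in the 4 with the low share. The totals include the counts of this gene, and totals without it were not compared. The mean share was 5.21% ± 2.88 at F20 and 2.32% ± 2.46 at F23 (SD over 4 animals each, exact permutation test, two-sided p = 0.171, Benjamini-Hochberg adjusted p = 0.305 over 4 library measures). Of the 16 other libraries of run 3, 3 also held more than 5% of their counts in this gene. The share was above 5% in 3 F20 animals and 1 F23 animal, and the test did not separate the days. The share was also entered as a covariate (given after the named genes).

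The animals separated by day on the first component of a principal component analysis (PCA), which held 26.8% of the variance over all tested genes. The F20 animals lay between -39.8 and -13.6 and the F23 animals between 17.9 and 50.4, so the groups did not overlap. The second component, with 19.5%, set F20 animal 35 at 61.2 apart from the other 7 animals, which lay between -27.6 and 15.02. F20 animal 1, with the low share of the most abundant gene, was at 52.1 on the third component (14.2%). The other animals with the low share, F23 animals 6, 22 and 23, were at -11.2, 14.8 and 1.40 on it. Log2 CPM values correlated across genes at 0.955 to 0.974 between F20 animals (median 0.962), 0.964 to 0.974 between F23 animals (median 0.969) and 0.946 to 0.967 between the days (median 0.958). The values between animals of different days thus lay partly within the range of animals of the same day. The spread between animals was similar on both days, with a median SD of 0.27 log2 units at F20 and 0.25 at F23 over the tested genes. An SD above 1 log2 unit was found for 700 genes (5.23%) at F20 and 527 genes (3.94%) at F23.

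**Figure D1:**
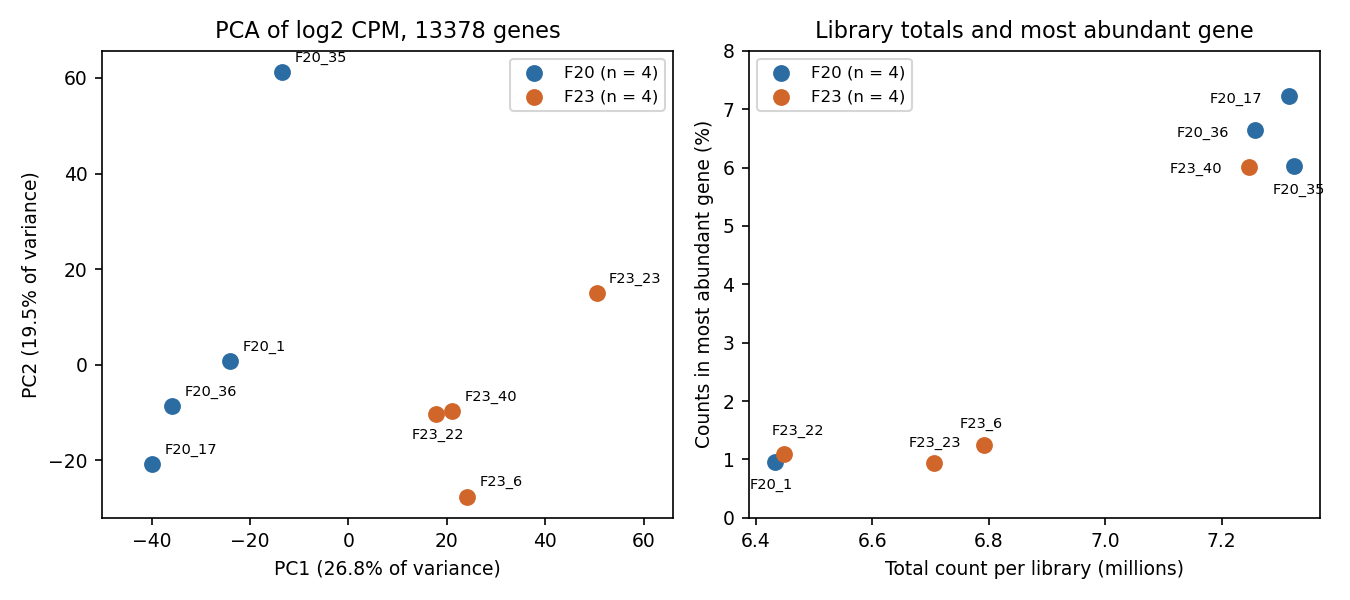
The left panel plots each animal on the first and second principal components of log2 CPM over 13378 genes, and the right panel plots the percent of counts in the most abundant gene against the total count per library. Points are single animals, blue for F20 and orange for F23; PC1 separates the days, whereas the right panel shows a high-share cluster of 3 F20 animals and 1 F23 animal above 6% and a low-share cluster of 1 F20 and 3 F23 animals at or below 1.25%.

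Genes were tested where 3 or more of the 8 libraries reached 0.5 CPM. Of these 13378 genes, 259 (1.94%) were called, that is, they passed an absolute fold change above 2 with an adjusted p of at most 0.05 in edgeR's quasi-likelihood test. The 203 rising genes were 1.52% of the tested genes and the 56 falling genes 0.419%, so 78.4% of the calls were increases. The median log2 fold change was 1.49 for the rising genes and -1.54 for the falling genes, against -0.02 over all tested genes. With the adjusted p alone, 728 genes (5.44%) passed, 556 higher and 172 lower at F23, and 469 of these had a fold change of 2 or less. Conversely, 388 genes were estimated more than 2-fold higher and 469 more than 2-fold lower without passing the adjusted p. The excess of increases among the calls was therefore not seen among the genes with large estimates that failed the test.

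The levels of the F20 and F23 animals did not overlap in 202 of the 203 rising genes and in 53 of the 56 falling genes, while they did not overlap in 1956 of all tested genes (14.6%). This follows from the choice of the genes by the same contrast and is given as a description.

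Most changes were moderate. Among the rising genes, 103 had a log2 fold change between 1 and 1.5, 42 between 1.5 and 2, 44 between 2 and 3, and 14 above 3. Among the falling genes the numbers in the same intervals were 26, 15, 8 and 7. A fold change above 4 was found for 58 rising and 15 falling genes.

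The share of called genes differed between classes of level, against 1.94% over all tested genes. Below 1 CPM, 13 genes rose and 8 fell among 1621 tested (1.30%). Genes with a mean of 1 to 10 CPM gave 86 rising and 25 falling genes among 4212 tested (2.64%), and those with 10 to 100 CPM gave 89 and 22 among 5439 (2.04%). At 100 to 1000 CPM, 15 genes rose and 1 fell among 1999 (0.800%). None of the 107 genes above 1000 CPM was called by edgeR, limma-voom or DESeq2 (0 genes each), and 35 of them (32.7%) had an unadjusted p under 0.05 in edgeR, against 21.5% of all tested genes. The class is small, and no test of the shares was made.

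Complete appearance or loss of a transcript was hardly resolved at this depth. The 17 genes with no count in the F20 libraries and at least 1 count in every F23 library had at most 16 counts over the 4 F23 animals (median 8), and 0 of them reached the level needed to be tested. The 16 genes with the reverse pattern had at most 21 counts over the 4 F20 animals (median 6.5), and 1 of them was called lower. A level below 0.5 CPM was the F20 mean of 25 of the rising genes and the F23 mean of 13 of the falling genes.

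**Figure D2:**
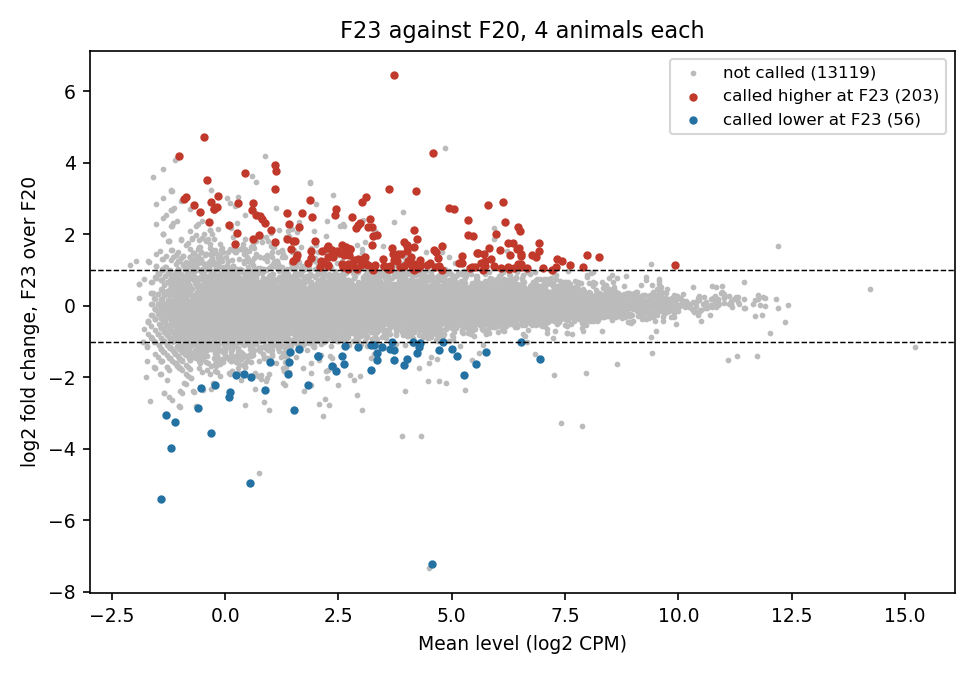
Each point is a gene, placed by its mean level over the F20 and F23 means (log2 CPM, x axis) and its log2 fold change of F23 over F20 (y axis); red points are the 203 genes called higher, blue points the 56 called lower and grey points genes not called, with dashed lines at a 2-fold change. All called genes lie below 1000 CPM, at about 10 on the x axis, and red points outnumber blue ones.

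Rising genes did not move equally far in the 4 F23 animals. F23 animal 22 had the lowest level among the F23 animals in 111 of the 203 rising genes (54.7%), against 21.7% of all tested genes. The highest level was that of F23 animal 6 in 81 of them (39.9%) and of animal 23 in 74 (36.5%), against 26.3% and 28.6% of all tested genes. Animal 6 also had the lowest level among the F23 animals in 29 of the 56 falling genes (51.8%, against 25.6% of all tested genes). Animal 6 was thus often farthest from the F20 levels in either direction and animal 22 often nearest in the rising genes. The genes share these animals and were chosen with them, so the counts are descriptions.

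The rising gene with the largest fold change among those with a mean of at least 10 CPM was ENSOCUG00000005563. It was close to the limit of detection at F20, with 3, 1, 1 and 3 counts in animals 1, 17, 35 and 36, or 0.439, 0.138, 0.138 and 0.432 CPM. At F23 it reached 43.0, 12.9, 19.6 and 29.2 CPM in animals 6, 22, 23 and 40, and every F23 animal lay far above every F20 animal. The fitted log2 fold change was 6.44 ± 0.52 (SE, n = 4 per day, edgeR adjusted p = 0.000248). The summed counts were 8 at F20 and 714 at F23, a 93.0-fold ratio of shares with a 95% interval of 46.9 to 216 that covers counting error only.

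The second rising gene, ENSOCUG00000020733, was low but measurable at F20, at 1.32, 4.28, 1.38 and 2.31 CPM in animals 1, 17, 35 and 36. At F23 its level was 77.3, 23.8, 41.6 and 39.0 CPM in animals 6, 22, 23 and 40. As for the first gene, animal 6 was the highest and animal 22 the lowest of the F23 animals. The log2 fold change was 4.28 ± 0.45 (SE, n = 4 per day, edgeR adjusted p = 0.000691), that is 19.4-fold.

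Of the falling genes with an F20 mean of at least 10 CPM and no overlap between the days, ENSOCUG00000010336 fell most. Larger falls, down to a log2 fold change of -7.23, were of genes outside these limits. ENSOCUG00000010336 stood at 50.1, 59.4, 45.4 and 89.7 CPM in F20 animals 1, 17, 35 and 36. It was at 14.6, 9.87, 20.9 and 18.3 CPM in F23 animals 6, 22, 23 and 40, with no overlap between the days. Its log2 fold change was -1.94 ± 0.26 (SE, n = 4 per day, edgeR adjusted p = 0.00301). The other named falling gene, ENSOCUG00000001765, was at 22.7, 15.2, 9.25 and 10.7 CPM at F20 and at 1.32, 5.08, 3.73 and 6.34 CPM at F23, in the same order of animals. The days did not overlap here either, but the F20 animals differed among themselves by more than 2-fold and F23 animal 6 was the lowest. Its log2 fold change was -1.81 ± 0.43 (SE, n = 4 per day, edgeR adjusted p = 0.0383). This call was lost when F20 animal 1, 17 or 36 or F23 animal 6, 22 or 23 was left out, with adjusted p between 0.0548 and 0.0958, and with the share of the most abundant gene as a covariate, where the log2 fold change was -1.85 ± 0.47 (SE, adjusted p = 0.0746).

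**Figure D3:**
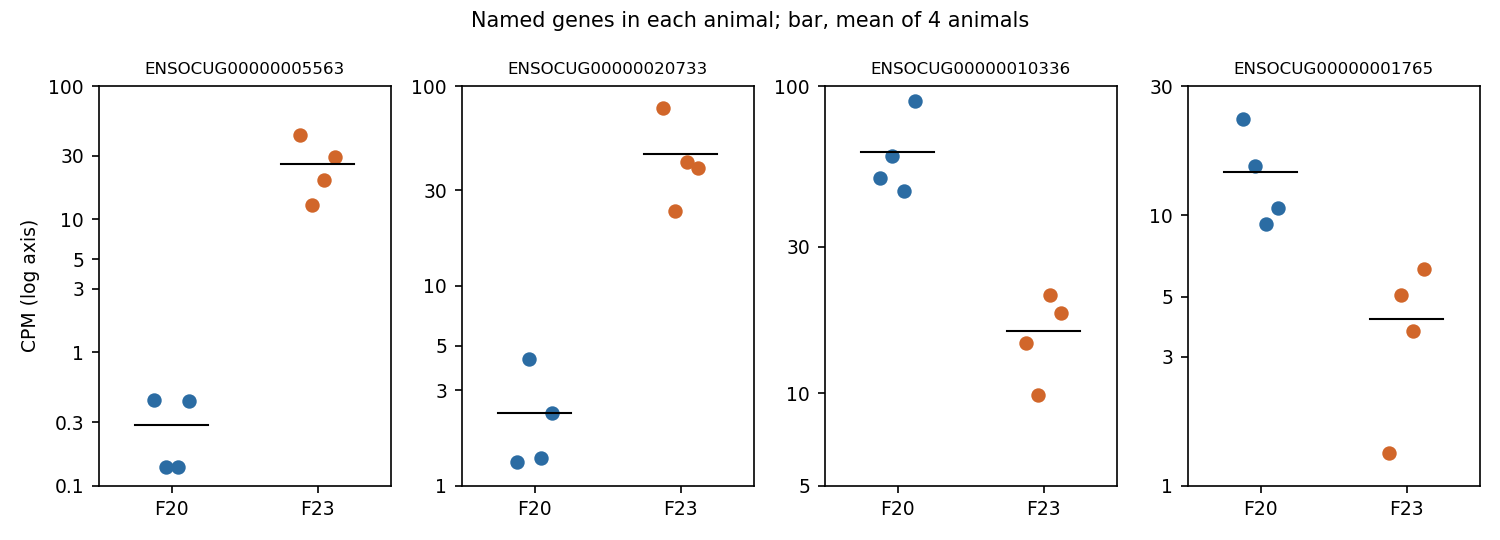
Each panel shows 1 gene, with the CPM of each animal on a log axis for F20 (blue, 4 animals) and F23 (orange, 4 animals) and a bar at the group mean; the axes differ between panels. The F20 and F23 points do not overlap in any of the 4 panels, the first 2 genes being higher and the last 2 lower at F23.

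The number of calls differed when single animals were left out and when the split of the libraries entered the fit. Leaving out F20 animal 17 left 158 called genes, and leaving out F23 animal 6 left 154, of which 149 were among the 259 in each case. With the share of the most abundant gene as a covariate, a fit chosen after the split was seen, 146 genes were called (114 higher and 32 lower), and 126 of them were among the 259. That fit also has 1 residual degree of freedom fewer, so its part in the lower count cannot be told apart from that of the share. Within the libraries of high share (3 at F20 and 1 at F23) the median difference of F23 from F20 was 1.44 log2 units for the rising and -1.39 for the falling genes. Within those of low share (1 at F20 and 3 at F23) it was 1.38 and -1.63, and all 203 rising and all 56 falling genes kept their direction in each range. The medians over all tested genes were 0.00 and -0.01. These genes had been chosen on the same libraries, so their direction within the ranges is no independent test.

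The later course of the called genes was followed in the other libraries of run 3, which came from other animals. These held 1 animal at F25, 2 at F28, 3 at term birth on day 31 (T31), and 2, 4 and 3 naturally born animals on days 35, 37 and 42 after conception (T35, T37 and T42). Levels of the rising genes continued upward after F23. Their median was 2.53 log2 CPM at F20, 3.86 at F23, 4.70 at F25 and 5.27 at F28, and then stayed between 4.95 and 5.29 from T31 to T42. For the falling genes the median was 2.97 at F20, 1.60 at F23 and 0.99 at F25, and lay between 0.78 and 1.32 afterwards. Over all tested genes it stayed between 3.73 and 3.86.

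Among the 8 time points, F20 had the lowest mean for 184 of the 203 rising genes (90.6%), against 21.6% of all tested genes. It had the highest mean for 46 of the 56 falling genes (82.1%), against 24.6% of all tested genes. The peak of the rising genes was at F23 for 10 genes (4.93%, against 9.08% of all tested genes), at F25 for 40 (19.7%, against 15.3%), at F28 for 46 (22.7%, against 9.45%) and at T31 for 47 (23.2%, against 12.7%). For the remaining rising genes it was at T35 (31 genes), T37 (13) or T42 (16). Since the genes were chosen by their difference between F20 and F23, part of this order is set by the choice, and no test was made.

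**Figure D4:**
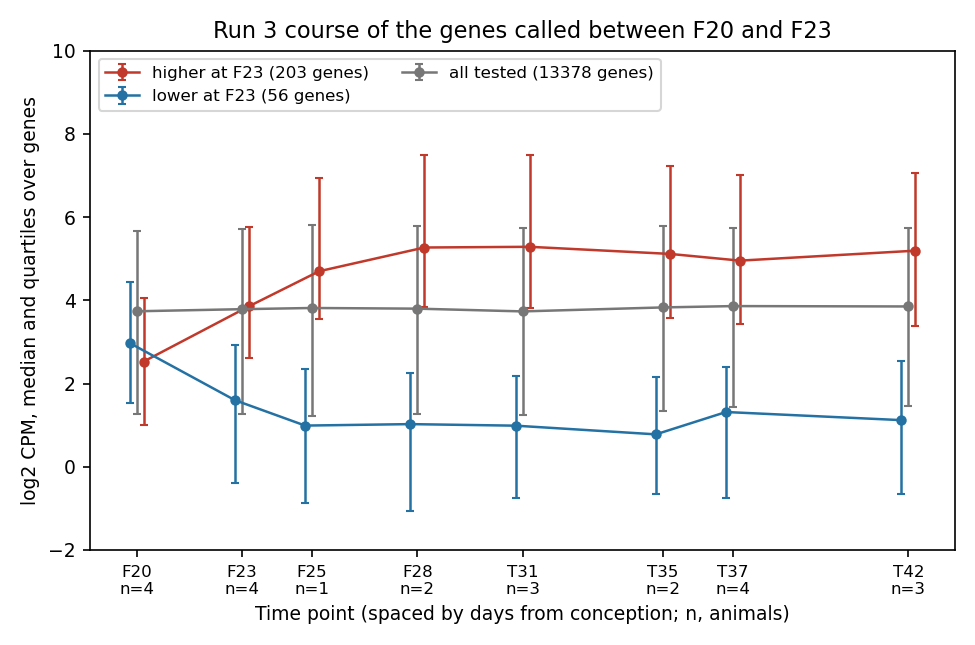
Points are the median and bars the quartiles over genes of the mean log2 CPM at each time point of run 3, placed by days from conception, for the 203 genes higher at F23 (red), the 56 lower at F23 (blue) and all 13378 tested genes (grey); n is the number of animals. The red median climbs from 2.53 at F20 to 5.27 at F28 and the blue median drops from 2.97 at F20 to 0.99 at F25, with little later movement in either.

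The named genes differed in how far they went after F23. ENSOCUG00000020733, at a mean of 41.8 CPM at F23 in the normalisation over run 3, was at 1233 CPM in the F25 animal, at 3859 ± 678 CPM (SD, n = 2) at F28 and at 5089 ± 1525 CPM (SD, n = 3) at T31. It was then at 2361 ± 322 CPM (SD, n = 4) at T37 and 2121 ± 476 CPM (SD, n = 3) at T42. Its F23 level was thus a small part of the range it covered later. ENSOCUG00000005563 was at 24.1 CPM at F23, 165 CPM at F25, 435 ± 65.4 CPM (SD, n = 2) at F28 and 433 ± 270 CPM (SD, n = 3) at T31, where the animals ranged from 231 to 740 CPM. For ENSOCUG00000010336 the later means lay between 1.71 CPM at T35 and 5.83 CPM at F28, all below the lowest F23 animal at 9.07 CPM. ENSOCUG00000001765 was at 1.37 CPM at F25 and 1.97 CPM at F28, and at 7.97 ± 3.95 CPM (SD, n = 3) at T42, above its F23 mean of 3.79 CPM but with animals from 4.41 to 12.2 CPM.

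A step between neighbouring time points within the alveolar phase, T37 to T42, was used to set the change within the pseudoglandular phase against another. It shares no animals with F20 and F23 and spans 5 days rather than 3. In a fit over the 24 run 3 libraries, 274 of 14817 genes were called between F20 and F23 (4 animals each), 246 higher and 28 lower. In the same fit 5 of 14817 genes (0.0337%) were called between T37 (4 animals) and T42 (3 animals), 5 higher and 0 lower. An unadjusted p under 0.05 was found for 2430 genes in the early and 1326 in the later step. The number called between T37 and T42 was between 0 and 7 when single animals were left out, 16 with limma-voom and 11 in a fit of the 4 groups alone. None of the 259 genes called between F20 and F23 was called by edgeR or limma-voom between T37 and T42 (0 genes each). With so few calls among all genes in that step, this says nothing particular about the 259. Of them, 34 (13.1%) had an unadjusted p under 0.05 in edgeR, against 1326 of all 14817 genes, and no test of the shares was made. In that later step the median difference was 0.03 log2 units for the rising and 0.07 for the falling genes, against 0.01 over all genes.

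The difference between the steps was itself tested. For 168 of 14817 genes (1.13%) the change from F20 to F23 differed from that from T37 to T42 by more than 2-fold with an adjusted p of at most 0.05, and 128 of them had the more positive change in the early step and 40 the more negative. The fit behind this test called 28 genes lower at F23 than at F20, against 56 in the fit of the 8 libraries. Of the 203 rising genes 104, and of the 56 falling genes 4, passed the test of the difference in their own direction. The test holds the same F20 and F23 animals by which these genes were chosen, so the counts are a description and no independent support. The named genes were chosen for their large change between F20 and F23, which enters the tested difference. Their values are likewise a description and no independent support. The difference was 6.54 ± 0.67 log2 units (SE) for ENSOCUG00000005563, 4.44 ± 0.49 for ENSOCUG00000020733, -2.44 ± 0.49 for ENSOCUG00000010336 and -2.48 ± 0.56 for ENSOCUG00000001765. Their changes from T37 to T42 alone were -0.09, -0.15, 0.51 and 0.68 log2 units in the same order, and none of them was called.

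**Figure D5:**
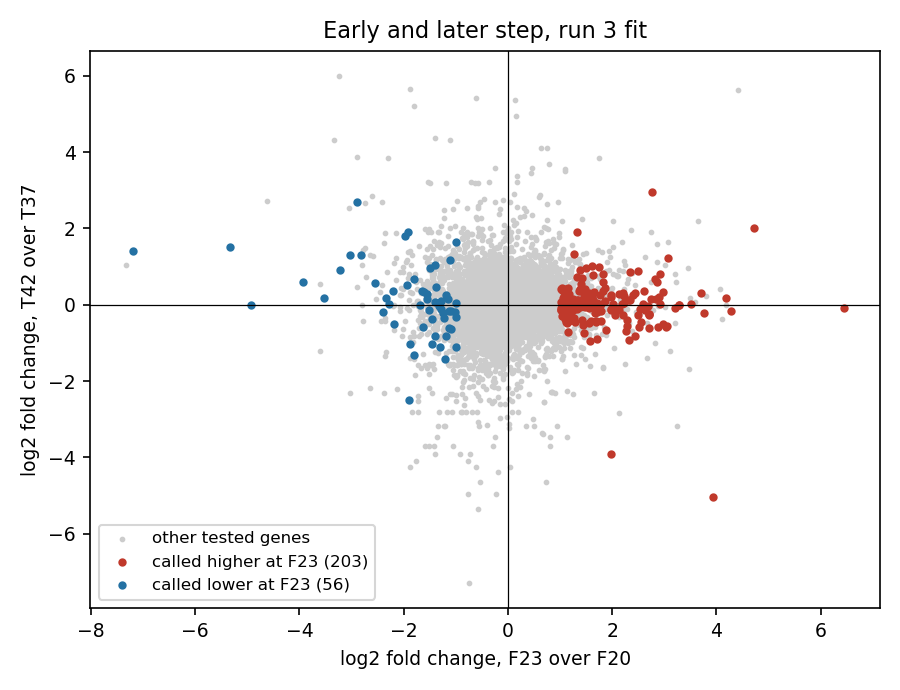
Each point is a gene of the fit over run 3, placed by its log2 fold change of F23 over F20 (x axis) and of T42 over T37 (y axis), with the 203 genes called higher at F23 in red, the 56 called lower in blue and other tested genes in grey. The coloured points spread along the x axis by their choice, and their medians on the y axis are 0.03 and 0.07.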

How the data were processed

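Lung RNA was sequenced near the 3′ end of transcripts (QuantSeq FWD), so counts do not scale with transcript length. The authors trimmed reads with BBduk, used STAR to map them on OryCun2.0 and took counts per Ensembl gene from HTSeq-count, and a script of theirs added unannotated 3′ UTRs; versions are not given in the sources used here. The deposited values are whole-number counts of 29587 genes, without normalization. No molecular identifiers are described, so intervals cover counting error only.

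Of the 29587 genes, 9812 had no count in the 8 libraries and 6397 had counts but did not reach 0.5 CPM in 3 libraries. Groups were compared with edgeR 4.0.16 (R 4.3.3), quasi-likelihood F test, TMM normalization and Benjamini-Hochberg adjustment over all tested genes, at the study's thresholds (absolute fold change above 2, adjusted p of at most 0.05). The SE is the absolute log2 fold change divided by the square root of F. The fit over run 3 had 1 level per time point for 24 animals, including 1 preterm animal whose values are not described. Log2 CPM used a prior count of 2. The methods name limma-voom as the test; it (limma 3.58.1) and DESeq2 1.42.0 were alternatives, with other scalings, filters, thresholds and left-out animals. Exact tests used scipy 1.17.1, figures matplotlib 3.10.9. Scripts were tested on simulated data. No 2 of the libraries were identical (0 pairs), and every column of the table was mapped to a sample.

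Named genes were those called, without overlap between the days, with a mean of at least 10 CPM in the higher group and the largest fold change, 2 in each direction. The planned gene lists, and the part of the rule that used symbols, could not be applied, because the table holds identifiers only, and no sequence is shown for the same reason. The members, lists and tests were chosen with earlier results of these data known, and 3 fits were added after the libraries had been inspected.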

Additional observations from a re-analysis of the deposited data

Results flagged for a closer look

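Of 26 sets of 4 animals examined for an animal far from the others, 3 were picked out. Chance alone picks about 1 in 20 of independent sets, but these sets share animals and measures. All 3 measures picked out include the counts of the most abundant gene. F20 animal 1 had the lowest total count of its group, with a gap to the next animal of 0.926 of the group's range. The same animal had the lowest share of counts in the 20 most abundant genes, 10.1% against 14.9% to 15.3%, with a gap of 0.934 of the range. Among the F23 animals, animal 40 had the highest share of the most abundant gene, with a gap of 0.937 of the range. Without these animals together, 160 genes were called between F20 and F23, 126 higher and 34 lower, and 120 of them were among the 259.

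The change from F20 to F23 differed from that from T37 to T42 for 168 genes in the test of the difference. The named genes passed the same test, which holds the F20 to F23 change they were chosen for and so is no independent support. The difference was 6.54 log2 units for ENSOCUG00000005563, 4.44 for ENSOCUG00000020733, -2.44 for ENSOCUG00000010336 and -2.48 for ENSOCUG00000001765. The call of ENSOCUG00000001765 in this test was lost without F20 animal 1, F23 animal 23, T37 animal 46 or T42 animal 14 or 50. Its adjusted p in edgeR's quasi-likelihood test was then between 0.0528 and 0.114.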

How the results depend on the processing

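No paired analysis was possible because each F20 and F23 library came from a different animal. The number of genes called between F20 and F23 was 312 with DESeq2, 251 with limma-voom and 256 with RLE scaling. The adjusted p alone gave 728 (556 higher, 172 lower) and an adjusted p of at most 0.01 gave 107 (95 higher, 12 lower), of which 88.8% were higher. The falling genes numbered 37 with at least 10 counts in every library, where of the named genes ENSOCUG00000010336 alone was tested, and 28 with all run 3 libraries in the fit, where 89.8% of calls were higher. Fits added after seeing the data gave 146 (114 and 32) with the share of the most abundant gene as covariate, 160 (126 and 34) without F20 animal 1 and F23 animal 40, and 33 falling genes without F20 animal 35 and F23 animal 23. The cause of these differences was not tested. Leaving out 1 animal gave 154 to 297 calls, 131 to 240 higher and 22 to 57 lower. The falling genes were 26 without F20 animal 1, 27 without F20 animal 17, 22 without F23 animal 6, 29 without F23 animal 23 and 35 without F23 animal 40.

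The difference between the early and the later step gave 117 to 173 genes when 1 animal was left out, 91 to 136 more positive and 24 to 46 more negative, the last being 24 without T42 animal 14 and 26 without T42 animal 50. A fit of the 4 groups alone gave 64 more negative genes. Between T37 and T42, 0 to 7 genes were called when 1 animal was left out, 11 in the fit of the 4 groups and 16 with limma-voom; edgeR called 0 without T37 animal 46 or 47 or without any 1 T42 animal, with 985 to 1148 genes at an unadjusted p under 0.05, 1 without T37 animal 27, and 2 without T37 animal 12 or F23 animal 40. The mean total count at F23 minus that at F20 was between -500096 and -167040 when 1 animal was left out. ENSOCUG00000005563, ENSOCUG00000020733 and ENSOCUG00000010336 kept their call in every alternative that tested them, and none of the 4 named genes changed direction. Near the limit of 0.5 CPM, a value rests on few reads and fold changes are imprecise.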
